A study of Zea mays with 168 samples.

Results

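The 200 brightest spots of a maize cDNA microarray were described across primary roots of 4 inbred lines and their 12 reciprocal hybrids. A cDNA microarray carries spots of cloned transcript fragments, and the dye signal on a spot follows the amount of the matching transcript in the RNA that was labelled. The spots were chosen from the authors' log2 values: each sample's median over all spots was subtracted, the result was averaged over both samples of 76 slides, and the 200 highest means were taken among the 11029 spots whose identifier occurs on a single row (1.81%). They are called members here. Because brightness chose them, their brightness is a description and was not tested. The contrasts between genotypes played no part in the choice.

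Roots of Zea mays were taken 3.5 days after germination, and each sample was a pool of roots of 1 genotype from which polyadenylated RNA was purified. A genotype names both of its lines, so that 005x005 is an inbred line, while 005x250 and 250x005 are hybrids of the same 2 lines with the parents exchanged. After the rule had left out 8 of 84 slides, the inbred lines had 16 samples (002x002), 14 (005x005), 16 (250x250) and 19 (301x301), and the hybrids 5 (250x005) to 9 (301x002). Each slide carried 2 samples, 1 labelled with the dye Cy3 and 1 with Cy5, and per the series text each was an independent biological replicate. No slide paired 2 inbred lines, 65 slides paired a line with a hybrid and 11 paired 2 hybrids. Whole roots were used, so that fewer cells of a type and less RNA per cell cannot be told apart.

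Abundant mRNAs of growing root tissue commonly encode ribosomal proteins, histones, cytoskeletal proteins, enzymes of sugar breakdown and small cell-wall or metal-binding proteins, because dividing and elongating cells make new ribosomes, chromatin and walls. Which of these the members encode is not known here. None of the 200 member identifiers matched a gene of the RefSeq maize annotation (Zm-B73-REFERENCE-NAM-5.0), so they are given by identifier, with no function and no sequence. On this array the same identifier printed on 2 or 3 spots gave levels with a rank correlation over 402 identifiers of only 0.228, so an identifier may be wrong for some spots. Each member has 1 spot, and its identifier could not be checked in this way.

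The members were compared with the spots that have no identifier, whose content is not known. On the scanner scale, the median member was 72 times as bright as the median spot without an identifier in the median sample, with a range over samples from 1.58 to 675 times, while the median tested spot reached 1.84 times in the median sample. The limit exceeded by 2.5% of the spots without an identifier was passed by all 200 members and by 12.9% of all tested spots. Bright spots can reach the scanner's ceiling. In the scan of highest gain 47.1% of member values were above 45000 units, against 1.58% of all tested values. Every scan was above that limit for 806 of 30375 member values (2.65%), spread over 73 samples. For the rest a scan below the ceiling was available.

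By the rule, which counts values listed at exactly 0, the highest mean belonged to AI600501, at 6.84 on the log2 scale over the median spot. Its 150 samples with other values ran from -1.76 to 14.43 with a median of 7.18. AI586650 followed with a mean of 6.56, then AI600882 with 6.55, AW331055 with 6.54, AW424582 with 6.46, AI622120 with 6.45, AI612478 with 6.32 and AI600980 with 6.30. AW066632 and AI714900, ranked 9 and 10, both had 6.27. The order depends on the values at 0: over samples with other values AI619403, ranked 25 by the rule, had the highest mean (7.44), followed by AI600501 (7.08), AW331055 (6.98), AW066632 (6.97) and AI621516 (6.90). The last members by the rule were AW331068 (4.14), AW331487 (4.135) and BE056273 (4.133), and the first spots outside were BE056250 and AW066752 (both 4.129) and AI941617 (4.121). The edge of the set thus cuts through a continuous run of levels. The authors' values rise with log2 intensity at a slope that differed between samples, from 0.511 to 1.94 with a median of 0.989, so a unit of these levels is not the same fold in every sample. Brightness also depends on the spot itself, so the order of the members is an order of spots rather than of transcript amounts.

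Membership held for most samples, though no member was among the 200 brightest eligible spots of every sample in which it was measured. A sample's own 200 brightest spots held between 60 and 174 members with a median of 74%, and 8 samples held 100 or fewer. The 2 lowest samples shared slide 510, with 60 members in the 002x002 channel and 68 in the 002x250 channel. AW331055 was among the 200 brightest in all but 1 of the samples in which it was measured, AW330971 in all but 3 and AW324596 in all but 6. At the other end BE056273 was there in 40 samples, and AI737077 and AI491280 in 47 each. The 16 samples of the left-out slides, which the rule did not use, held 75 to 171 members among their own brightest 200.

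The members fell into 2 sets by how much their ratios differed between slides. In the fit of genotype and dye described below, the SD left over between slides (the residual SD of the log2 ratio) was 1.23 to 1.96 for 57 members and 0.367 to 0.974 for all others, with no member between. Over all 11838 tested spots 8.37% had a residual SD over 1, against 28.5% of the members. The limit of 1 was set after this gap had been seen, so the 57 members are described and not tested as a set. All of the 10 members with the highest means were among them. With median centring of each slide in place of loess, 89 members had a residual SD over 1, and the 57 were all among these.

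**Figure D1:**
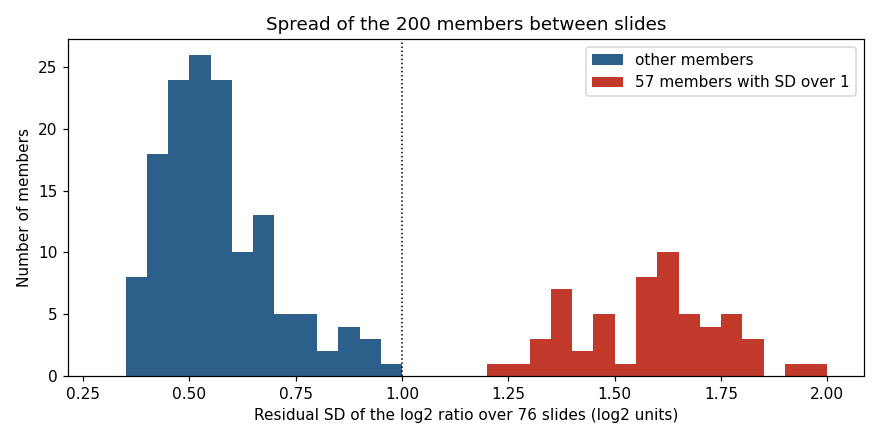
Histogram of the residual SD of the log2 ratio (horizontal axis, log2 units, over 76 slides) for the 200 members (vertical axis, number of members). The other members in blue lie at or below 0.974 and the 57 in red at or above 1.23, on either side of the dotted line at 1.

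The 57 members moved together. Across 76 slides their log2 ratios had a median pairwise Pearson correlation of 0.854 over 1596 pairs, the lowest being 0.546, and a single component held 84.4% of their variance against 2.74% for the next. Among the other members the median correlation was 0.20 and the first component held 24.1%. Part of the likeness among the others went with position on the slide: 593 pairs from the same print block had a median correlation of 0.57 and 9560 pairs from different blocks 0.18. The points of these correlations are slides, and the members of a pair share both samples, the hybridisation and the normalization of each slide. Of the others, 1 member had a correlation over 0.8 with the mean of the 57 (0.815).

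The size of this shared movement was large. The median log2 ratio of Cy5 over Cy3 of the 57 members ran from -4.02 on slide 58 to 4.04 on slide 298, with an SD over slides of 1.62. For the other members on the same slides it ran from -0.87 to 0.71 with an SD of 0.254. These ratios were taken after a loess within each slide, which centres spots of like brightness near 0. The 57 lay beyond 1 in either direction on 33 of 76 slides, beyond 2 on 17, and the other members on none. On slide 930 the 57 members were a median of 3.86 higher in 002x301 than in 002x002, from 2.66 to 5.17, while the others were at -0.22. Both titles of slide 930 name Cy3, and 002x301 was taken as Cy5 from another label field. The Cy5 scans had a rank correlation of 0.997 with the deposited values of the 002x301 sample and 0.71 with those of the 002x002 sample. On 24 slides every measured member of the 57 had the same sign. The spread was present in each range of slide numbers, with an SD of 1.73 on slides 2 to 61, 1.97 on slides 273 to 309, 1.04 on slides 471 to 561 and 1.54 on slides 916 to 999.

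**Figure D2:**
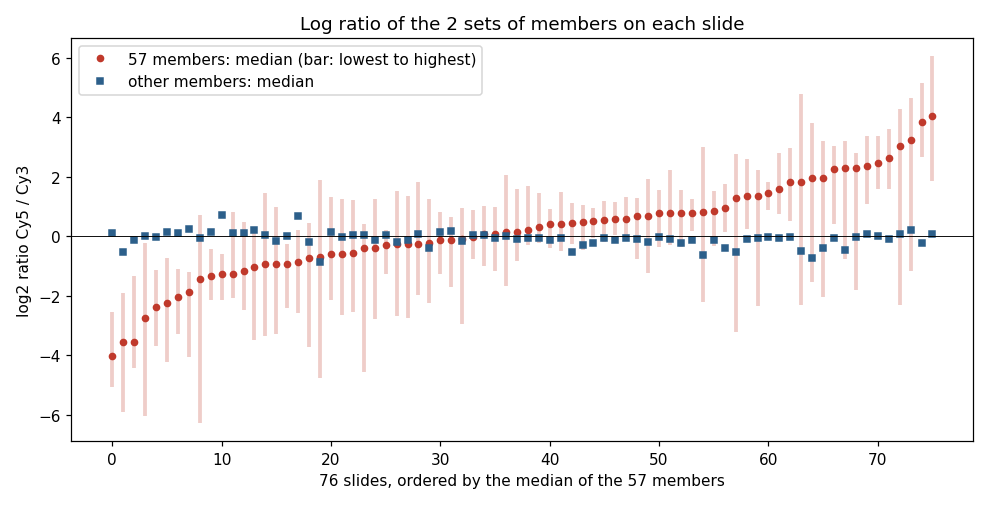
Median log2 ratio of Cy5 over Cy3 on each of 76 slides for the 57 members that moved together (red, with a bar from the lowest to the highest member) and for the other members (blue), with slides ordered by the red median. The red medians run from -4.02 to 4.04, and the blue medians stay between -0.87 and 0.71.

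Slides that carried the same 2 genotypes often differed in this movement. Of 28 pairs of genotypes on 2 or more slides, 12 had slides of opposite sign for the median of the 57. The range over such repeat slides had a median of 1.30 for the 57 and 0.21 for the others. In 250x002 over 250x250 the 57 members had medians of -2.30, -1.96 and -1.35 on slides 274, 508 and 923, and 3.25 on slide 292. Slide 292 had values for 52 of the 57. Its channels had rank correlations of 0.88 and 0.89 with their own deposited values, against a median of 0.997 over all channels. The sign was also mixed in 301x250 over 301x301, with medians of 4.02 on slide 58, 2.38 on slide 39 and 0.32 on slide 41, against -0.57 on slide 924. Other pairs were alike: 250x005 over 250x250 had medians of -2.75 and -3.04 on slides 16 and 28, which carried the dyes in opposite order. Among the left-out slides, the 57 were at -3.88 in 250x005 over 005x005 on slide 19, with the others at -0.60. Slide 15, which was used, carried the same pair and went the opposite way, at -0.73 in 005x005 over 250x005. Left-out slide 48, at 3.05 in 250x250 over 250x005, is no separate case, as its values were nearly identical to those of slide 28.

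As levels of single samples, the same split is visible. The mean level of the 57 ran from 2.51 to 9.81 over samples with a median of 5.38, and that of the others from 0.59 to 7.09 with a median of 4.85. The SD of single samples within a genotype was 1.31 for the 57 and 0.89 for the others. The 16 genotype means had SDs of 0.58 and 0.45, which are not on the same footing, as a mean varies less than a single sample. In 33 samples the 57 lay below the others. The inbred lines overlapped throughout. The 57 had mean levels of 5.95 ± 1.63 (SD, n = 16) in 002x002, 5.38 ± 1.62 (n = 14) in 005x005, 5.51 ± 1.52 (n = 16) in 250x250 and 5.42 ± 1.18 (n = 19) in 301x301. Among hybrids the lowest mean was 4.52 ± 0.55 (n = 8) in 250x002, next to 4.54 ± 1.26 (n = 5) in 250x005 and 4.91 ± 0.35 (n = 6) in 005x250. The highest was 6.41 ± 0.98 (n = 8) in 301x250, then 6.19 ± 1.61 (n = 7) in 002x005 and 6.17 ± 0.69 (n = 7) in 005x301. Neighbours in this order differed by less than their spread.

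The other members were ordered differently. They were lowest in 002x250, at 3.80 ± 1.12 (SD, n = 8), and in 002x002, at 4.26 ± 1.36 (n = 16), and highest in 002x005, at 5.45 ± 1.29 (n = 7), and in 005x002, at 5.28 ± 0.34 (n = 6). On slide 510 both channels had the 57 among their highest levels, 9.81 in 002x250 and 9.18 in 002x002, and the others at the lowest levels of all samples, 1.15 and 0.59. No member had an SD of genotype means larger than its pooled SD within genotypes. A mean over 5 to 19 samples varies less than a single sample, so this order was largely fixed beforehand. It does not decide whether genotypes differed. The median member had 0.53 for the first and 1.23 for the second.

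**Figure D3:**
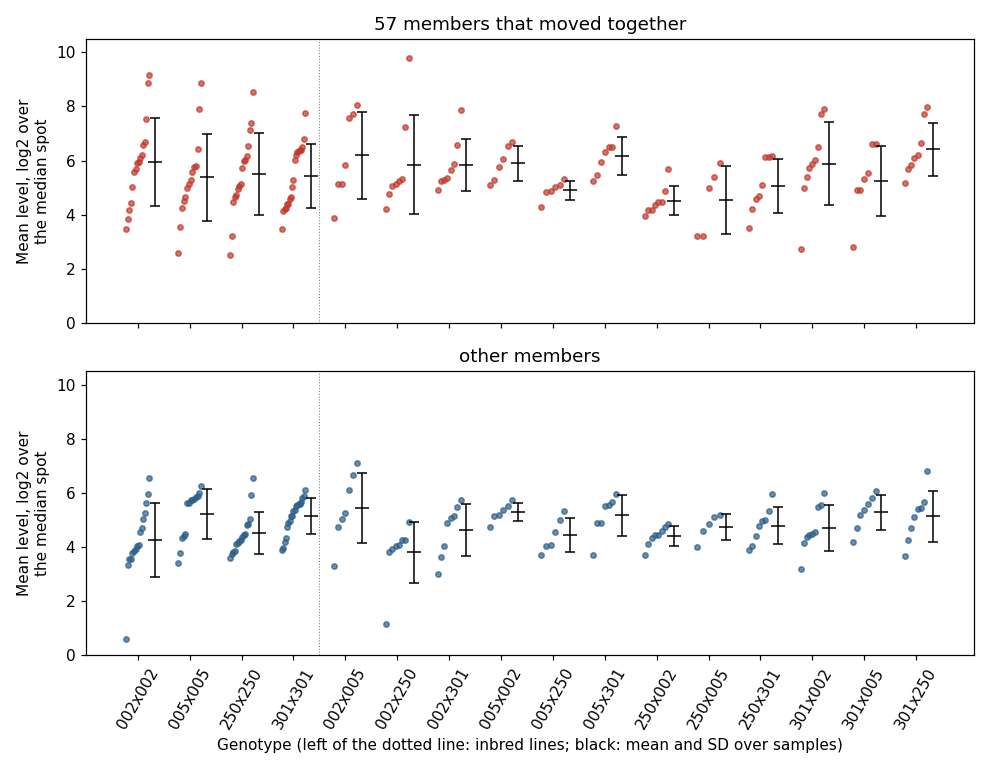
Mean level per sample (points, log2 over the median spot) of the 57 members that moved together (upper panel) and the others (lower panel) in 4 inbred lines and 12 hybrids, with the mean and SD over samples in black. All genotypes overlap in both panels, and both points of slide 510 stand out, high in the upper and low in the lower panel.

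The members whose genotype means differed most had almost no signal on several slides. The 5 largest SDs of genotype means belonged to AI619386 (1.66), AI600500 (1.51), AI600920 (1.49), AI600864 (1.31) and AI649648 (1.30), all 5 among the 57. Each of them lay under 1 in both channels of the same slide on 10 to 13 slides, mostly the same ones (slides 295, 511, 557, 559, 560, 561, 932 and 998 for all 5). There AI619386 had a median level of -0.45, against 6.41 on its other slides. AI600920 had -0.50 on 13 slides against 6.28 elsewhere. Without those slides the SD of genotype means was 1.11 for AI619386, 0.99 for AI600500, 1.04 for AI600920, 0.81 for AI600864 and 0.97 for AI649648. These 5 spots lie in print blocks 1, 17 and 25, all on line 11 of the block. Among all members, 228 of 15200 combinations of member and slide (1.5%) were this low in both channels, and 76 of these were on slide 510.

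The steadiest members by the same measure all lay outside the 57. AW330663 and AI586381 had an SD of genotype means of 0.34, as did BG841201, while AW455713 had 0.35 and AW927804 0.36. AW330663 ranged over genotypes from 3.77 in 002x250 to 4.84 in 005x002. Single samples of AW330663 ran from 0.13 to 6.99, so its steady means averaged over wide differences between samples.

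What the members share beyond brightness was looked for in their identifiers and positions. Of 192 eligible spots whose identifier begins with BE, 35 were members (18.2%), against 83 of those beginning with AW (2.73%), 75 of 5381 beginning with AI (1.39%), 5 of 995 beginning with BG (0.503%) and 0 of 1366 beginning with BM. Within these, short runs of identifiers were rich in members: 17 of 67 in the BE056 series (25.4%), 15 of 90 in BE129 (16.7%) and 14 of 88 in AW424 (15.9%). Both eligible identifiers beginning with AJ, AJ507105 and AJ507106, were members and both were among the 57. The sources used here do not say how the clones were selected.

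The 57 and the others came from different series. AI identifiers made up 45 of the 57 and 30 of the others, BE identifiers 1 and 34, and AW identifiers 6 and 77. AI600 held 13 of the 57, AI586 held 7, AI622 held 5, and AI461 and AI619 held 4 each. The BE056 and BE129 series held 0 of the 57 and 32 of the others. Their positions differed as well. A print block has 19 lines of spots, and 40 of the 57 lay on lines 10 and 11 of their block, where 9 of the others lay. Lines 4 to 6 held 6 of the 57 and 93 of the others. Of the 11029 eligible spots, lines 10 and 11 held 618 each, and lines 4, 5 and 6 held 618, 609 and 610. The 57 were spread over 26 of 32 print blocks with at most 5 in a block, whereas members in all were spread over 29 blocks with at most 21. All 236 eligible AI600 spots and all 120 AI586 spots lay on lines 10 and 11, and all 67 BE056 and 90 BE129 spots on lines 4 to 6, so that for these series identifier and line on the slide cannot be told apart.

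**Figure D4:**
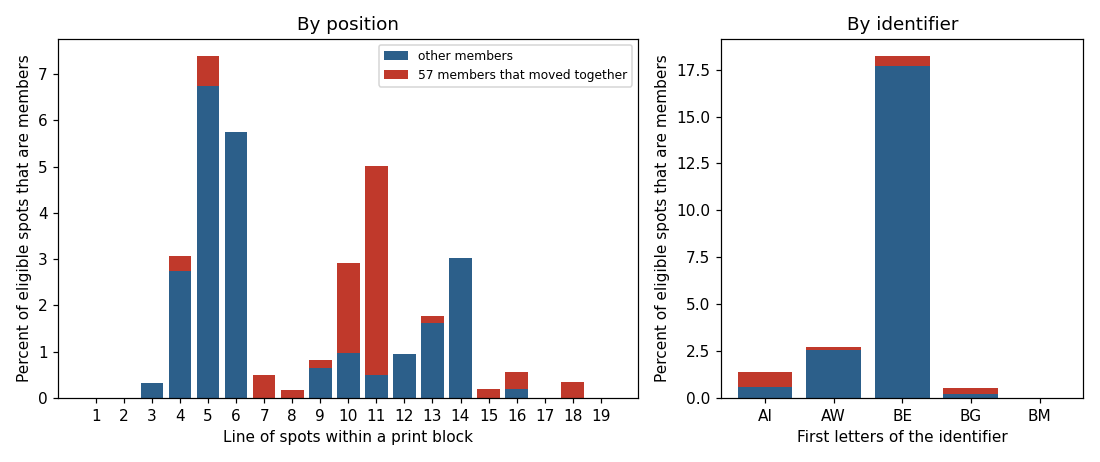
Percent of eligible spots that are members by line of spots within a print block (left) and by the first letters of the identifier (right, for letters with at least 100 eligible spots), split into the 57 members that moved together (red) and the others (blue). Lines 4 to 6 are mostly blue and lines 10 and 11 mostly red, and 18.2% of BE spots are members.

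Spots outside the 200 moved with the 57 too. Among 11638 other tested spots, 72 (0.62%) had a correlation over 0.8 with the mean of the 57 over 76 slides. The closest were AI622103 (0.953), AW067034 (0.951), AI491646 (0.947) and AI586557 (0.947), which were looked up after the 57 had been found. AI622103 has 2 spots, with mean levels of 5.38 and 0.33. AW067034 ranked 205 and AI586557 ranked 211, just below the lowest member.

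The genotypes were compared with limma on log2 ratios within slides, with 16 genotypes and a dye effect fitted to each of 11838 spots and p-values adjusted over all of them (Benjamini-Hochberg). Residual degrees of freedom were 60 for a spot measured on all 76 slides. A call is an adjusted p under 0.05. A count of calls among the 57 is not a count of separate findings, since 1 component held most of their variance.

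Whether any of the 16 genotypes differed was asked first. No member was called by the F test (smallest adjusted p = 0.12, for AI600395), against 1 of all tested spots (0.00845%). Before adjustment, 58 members had p under 0.05, which is 29.0%, against 7.74% of all tested spots. Of these 58, 53 belonged to the 57 and 5 to the others.

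Hybrids as a group were next set against the lines. No member was called in the mean of the 12 hybrids against the mean of the 4 lines, and no spot of all tested (0%). Unadjusted, 5 members (2.5%) and 3.88% of all spots had p under 0.05. The median difference was 0.16 for the 57, with a median SE of 0.193, and 0.02 for the others, with a median SE of 0.073. The member with the smallest p was AI600920, 0.50 ± 0.17 (SE) higher in hybrids with an adjusted p of 1.0.

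For single hybrids the reference was the mean of both parents, the measure of departure from additivity. Of 12 hybrids, only 002x301 had members called: AI600395 and AI600920, among 61 called of all tested spots (0.515%). AI600395 was 2.40 ± 0.54 (SE) above the parental mean (adjusted p = 0.018) and AI600920 1.87 ± 0.47 (adjusted p = 0.043). On the 6 slides that carried 002x301 with a parent, AI600395 was higher in the hybrid every time. Against 002x002 it was higher by 2.70 on slide 561, 3.27 on slide 921, 4.30 on slide 930 and 1.44 on slide 932. Against 301x301 it was higher by 1.74 on slide 557 and 2.21 on slide 559. AI600920 ran from -0.07 to 3.67 on these slides, and on slides 557, 559, 561 and 932 it was among the spots with almost no signal in both channels.

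All 57 members had estimates above 0 in 002x301 against its parents, with a median of 1.56 and a range from 0.79 to 2.40, and 54 of them had an unadjusted p under 0.05. The others had a median of -0.03, and 12 of them had p under 0.05. For all 200 members this gives 33.0%, against 15.1% of all tested spots. Within slides 471 to 561 the median of the 57 was 0.78 and AI600395 was 2.25 ± 0.46 (SE, adjusted p = 0.61). Within slides 916 to 999 the median was 1.86 and AI600395 was 2.35 ± 0.53 (adjusted p = 0.27). Leaving out slide 930, the slide with 2 Cy3 titles, took AI600395 to 2.08 (adjusted p = 0.16) and AI600920 to 1.58 (adjusted p = 0.22), and leaving out slide 561 took them to 2.30 (adjusted p = 0.057) and 1.95 (adjusted p = 0.065). AI600920 was also lost without slide 559, 921, 932, 996 or 998, with adjusted p from 0.058 to 0.13. Leaving out slide 557, 292 or 923 raised the number of members called over the 12 hybrids from 2 to 9, 6 and 5. The share of all tested spots called in these fits is not given. Without the slides on which it had almost no signal, AI600920 was at 2.30 and no longer called, and it was at 0.96 with loess per print block and at 0.99 with the authors' values, not called in either. Of the other settings of the analysis, AI600920 was called in 1 of 11 and AI600395 in 8 of 12, with estimates for the latter from 1.90 to 2.53.

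The other 11 hybrids had no member called, with 1 of all spots called in 250x002 and in 301x002 (0.00845% each) and 0 in the rest. The 57 leaned upward in 005x301, with a median of 1.20 and 31 members under an unadjusted p of 0.05, and downward in 250x002, with a median of -0.77 and 5 members under 0.05. In 250x002 the other members leaned the other way, at a median of 0.35, and 58 of them had p under 0.05. Over all members this was 31.5% in 250x002 and 16.5% in 005x301, against 8.76% and 3.17% of all tested spots. Unadjusted counts in the remaining 9 hybrids were 21 members in 301x002 (9.65% of all tested spots), 9 in 002x250 (9.05%), 8 in 250x005 (10.7%), 1 each in 002x005 (0.515%), 005x250 (3.56%), 250x301 (0.684%) and 301x005 (1.31%), and 0 in 005x002 (1.88%) and 301x250 (1.48%). In 250x002, slide 292 differed from the other 3 slides that paired it with 250x250.

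**Figure D5:**
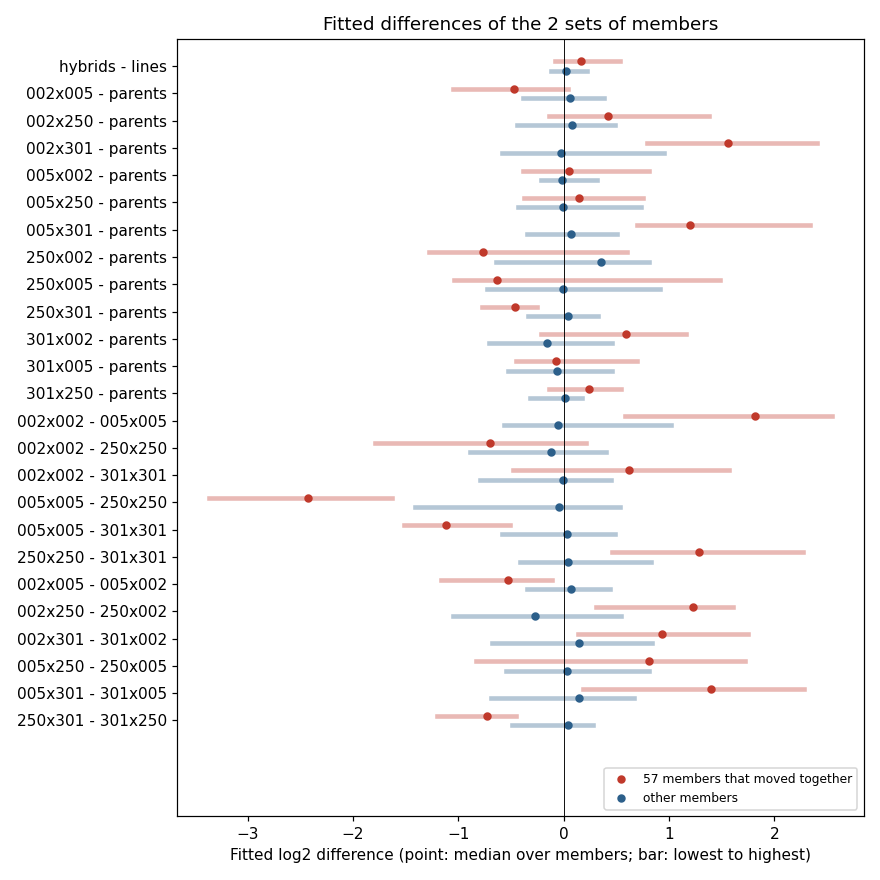
Fitted log2 differences (horizontal axis) for 25 comparisons, with a point at the median and a bar from the lowest to the highest member, for the 57 members that moved together (red) and the others (blue). The red medians run from -2.43 in 005x005 against 250x250 to 1.82 in 002x002 against 005x005, and the blue medians stay between -0.27 and 0.35.

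Between inbred lines, 3 members were called, all lower in 005x005 than in 250x250, among 10 called of all tested spots (0.0845%). AI600395 differed by -3.19 ± 0.70 (SE, adjusted p = 0.036), AI770716 by -3.27 ± 0.72 (adjusted p = 0.036) and AI734804 by -3.12 ± 0.71 (adjusted p = 0.048). In 12 other settings AI600395 was called in 10 (-3.33 to -2.39), AI770716 in 8 (-3.34 to -1.49, the last with a fit per channel) and AI734804 in 8 (-3.33 to -2.53). In 76 fits without 1 slide they were called in 60, 61 and 41, with adjusted p up to 0.097, 0.10 and 0.12. The levels of these members in the 2 lines overlapped. AI600395 had 5.72 ± 2.29 (SD, n = 14) in 005x005, from 1.65 to 10.45, and 6.39 ± 1.67 (n = 16) in 250x250, from 3.36 to 9.15. AI734804 had 3.98 ± 2.34 and 5.23 ± 1.91 over the same samples. AI770716 had 4.35 ± 2.19 in 005x005 and 4.13 ± 2.28 in 250x250, so its levels did not show the difference that the ratios gave.

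As no slide carried both lines, this difference rests on slides that join them through hybrids. Through 250x005 it came out negative on the slides used. AI600395 was at -1.04 in 005x005 over 250x005 on slide 15, and at -2.45 and -3.19 in 250x005 over 250x250 on slides 16 and 28. Through the reciprocal hybrid 005x250 it did not. There AI600395 was at -0.49 and -1.92 in 005x005 over 005x250 on slides 942 and 944, and at 0.88 and 1.6 in 005x250 over 250x250 on slides 34 and 945. The median of the 57 went the same ways, at -0.73, -2.75 and -3.04 through 250x005, and at -0.78, -0.10, 0.67 and 1.59 through 005x250. Slide 15 was the only slide used that paired 005x005 with 250x005. Left-out slide 19 carried the same pair and went the opposite way, with the 57 at -3.88 in 250x005 over 005x005. Left-out slide 18 was at -2.13 in 005x005 over 005x250, the same direction as slides 942 and 944. The fit also joins the 2 lines through hybrids of the other lines, so these slides are only part of the estimate. AI600395 was not called without slide 298 (adjusted p = 0.082), 57 (0.072) or 920 (0.069), which carried hybrids of line 301.

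All 57 members had an unadjusted p under 0.05 in this comparison, with a median difference of -2.43 and a range from -3.37 to -1.63. The others had a median of -0.04, and 3 of them had p under 0.05, so that 30.0% of members did, against 10.3% of all tested spots. Within slides 2 to 61 the median of the 57 was -2.84 and AI600395 was at -3.06 ± 1.54 (SE, adjusted p = 0.45). Within slides 916 to 999 the sign was the opposite, with a median of 1.18 and AI600395 at 0.81 ± 1.27 (adjusted p = 1). The number of members called over the 6 pairs of lines ranged from 0 to 39 when 1 slide was left out. It was 39 without slide 292 or slide 945, 23 without slide 506, 19 without slide 302, 13 without slide 304 and 11 without slide 942. It was 0 without any 1 of 15 slides (4, 15, 16, 28, 29, 57, 59, 287, 290, 298, 299, 307, 917, 920 and 944), and between 5 and 7 without any 1 of 9 others (34, 273, 291, 476, 509, 511, 557, 916 and 930). The share of all tested spots called in these fits is not given, so the counts show only how unstable the calls were.

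The other 5 pairs of lines had no member called, with 4 of all spots called in 002x002 against 005x005 (0.0338%), 1 in 002x002 against 301x301 (0.00845%) and 0 in the other 3. The 57 were a median of 1.82 higher in 002x002 than in 005x005, 46 of them with an unadjusted p under 0.05, and 1.28 higher in 250x250 than in 301x301, with 34 under 0.05. The medians of the other members in these comparisons were -0.05 and 0.04. The share of members under 0.05 was 25% and 20.0%, against 5.86% and 5.63% of all tested spots. In 002x002 against 250x250, 16 members had p under 0.05 (6.57% of all spots), in 002x002 against 301x301 14 (5.39%) and in 005x005 against 301x301 12 (1.7%). These comparisons share their line samples with each other and with those of the hybrids.

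Reciprocal hybrids carry the same 2 lines with the parents in exchanged order. No member was called between any of the 6 reciprocal pairs (smallest adjusted p = 0.32), while 34 of all spots were called between 005x250 and 250x005 (0.287%) and 0 in each of the other 5 pairs. The smallest p among members belonged to AI941551, not one of the 57, which was at -0.86 ± 0.28 (SE, adjusted p = 0.32) in 002x250 against 250x002. Its levels overlapped, with 3.24 ± 1.10 (SD, n = 8) in 002x250 and 4.14 ± 0.61 (n = 8) in 250x002. In that pair the 57 had a median of 1.23 and the others a median of -0.27. Before adjustment, 40 members (20.0%) had p under 0.05 there, against 9.06% of all tested spots. In 005x301 against 301x005 the 57 had a median of 1.40, and 23 members (11.5%) had p under 0.05, against 2.57% of all spots. The other 4 pairs had 18 such members in 002x301 against 301x002 (6.3% of all spots), 4 in 005x250 against 250x005 (11.7%), and 0 in 002x005 against 005x002 (0.76%) and in 250x301 against 301x250 (1.71%).

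The dye effect, a difference between Cy5 and Cy3 that a spot shows whichever genotype carries the dye, was called for 49 members (24.5%), against 13.5% of all tested spots. The 57 leaned toward Cy5, with 13 members called, all brighter in Cy5. The others leaned toward Cy3, with 36 called and 34 of these brighter in Cy3. Of all tested spots 5.02% were called brighter in Cy5 and 8.48% brighter in Cy3, while 80 members and 30% of all spots had an unadjusted p under 0.05. The largest called effects toward Cy5 were 0.64 ± 0.18 (SE, adjusted p = 0.011) for AI734804, 0.60 ± 0.19 for AI612478 and 0.58 ± 0.20 for AI619331. Toward Cy3 they were -0.54 ± 0.11 (adjusted p = 0.0012) for AI461505, -0.43 ± 0.10 for AI941575 and -0.41 ± 0.11 for AI939801. Among all 84 slides, another label field names the opposite dye from the title for 19 samples on 10 slides. With that field in place of the titles, no dye effect of a member was called.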

How the data were processed

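Per the labels' protocols, polyadenylated root RNA was reverse transcribed and coupled to Cy3 or Cy5. In the deposited scanner tables, spot intensity is linear, with 3 to 7 scans per channel, and the authors' deposited value table holds normalized log2 values (the normalization and image software were not given in the sources used here). Scanner rows lay in another order than the identifiers beside them, and after a rotation 99.5% of 12160 spots matched the value table best at the same row. Of 991 scans, 13 that did not follow the others were left out, values above 45000 units were dropped where a lower one remained, and each spot got the median scan. Intensities of 0 were treated as not measured, which drops that slide for that spot. With limma 3.58.1 in R 4.3.3, normexp (offset 50) and loess (span 0.3) were applied, without 190 spots lacking an identifier and 132 spots of identifiers printed 12 times. The fit was checked on simulated data with 200 changed spots. A log2 change of 1 was called for 28.5% of them in 002x002 against 005x005. It was called for 24% in 250x005 against its parents and for 100% in hybrids against lines. With a change of 2 these shares were 94%, 93.5% and 100%. They need not hold for the 57 members that moved together. In 002x002 against 005x005 the median SE of the 57 was 0.686, against 0.32 for all tested spots. Their median difference of 1.82 there came with no member called. Dyes follow the sample titles, except on slide 930, where both name Cy3 and the label field was used. On all 76 slides each channel followed the deposited values of its own sample more closely than those of the other. This did not hold for the left-out slides 0, 1, 288 and 289. Another 18 columns match no labelled sample and were not used. The number of slides limits the precision.

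The members, comparisons and named members were chosen with earlier results of these data known. Named were the 10 brightest members, those at the edge of the set, up to 5 called members per test or the one with the smallest p, the 5 largest and 5 smallest SDs of genotype means, 3 at each extreme of presence among the brightest 200, and the 3 largest dye effects each way. Other identifiers were named after their values were seen. Alternatives changed the values used, background correction, normalization, slides, dye labels, weights, filter, dye model, fit per channel and number of members. Those leaving out poorly measured slides or spots without signal were added after the data were seen.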

Additional observations from a re-analysis of the deposited data

Results flagged for a closer look

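In 11 of 96 groups of 4 to 10 samples checked, 1 sample lay far from the rest by Dixon's criterion at 95%, as chance gives in about 1 of 20 groups. Slide 510 held 3 of them, all in 002x250: the members outside the 57 that moved together were at 1.15 (the next sample at 3.80), AI600395 at 10.61 (next 7.25) and AI600501 at 14.43 (next 9.41). Slide 558 held 2, both in 301x002, with AI600395 at -0.37 (next 4.92) and AI734804 at 0.52 (next 5.28). On slide 920 AI600501 was at -1.76 in 301x250 (next 6.47), and on slide 921 it was at 10.65 in 002x301 (next 7.86). In 301x005, AI600920 was at 0.56 on slide 302 (next 4.6) and AI770716 at 1.68 on slide 298 (next 4.81). AI734804 was at 2.86 in 005x301 on slide 287 (next 5.53). On slide 58 the 301x250 sample held 98 members among its own 200 brightest spots.

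Among the 190 spots without an identifier, which no comparison uses, the brightest had a mean level of 4.24, above the lowest member, while the median was -0.96.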

How the results depend on the processing

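The ratios pair the 2 samples of each slide, and since the replicate numbers of the labels differ for every sample, no block by replicate number could be fitted. Choosing the 200 brightest spots in 6 other ways kept 193 to 200 of them. The number of members with a residual SD over 1 was 57 (52 to 60 in other settings), except 89 with median centring, and the 57 were all among these 89.

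Members called, summed over the comparisons of a kind, are given for hybrids against parents (2) and then pairs of lines (3). They were 9 and 16 with the authors' values, 7 and 15 with loess per print block, 0 and 0 with median centring, 0 and 31 with array quality weights, 35 and 44 among spots above those without an identifier, 10 and 53 with a fit per channel, and 1 and 1 without member values low in both channels or for the 100 brightest spots, which are fewer members. Hybrids gave 1 with the dyes of the label field or a dye effect per slide range, and 6 for the 400 brightest. Lines gave 5 without background correction, 0 with all slides and 28 without 6 slides with many spots not measured. Reciprocal pairs (0) gave 1 with loess per print block and 3 with all slides. The setting with all slides adds slides 0, 1, 288 and 289, whose channels may be exchanged. There at least 1 channel followed the deposited values of the other sample more closely. Slides 0 and 289 paired 005x301 with 301x005. The F test (0) gave 1 with weights or among spots above those without an identifier, and 43 with a fit per channel. Dye effects (49) gave 27 with median centring or without those 6 slides, 0 with label dyes, and 28 and 83 for the 100 and 400 brightest. Hybrids against lines stayed at 0 in all of these.

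Leaving out each slide gave 0 to 9 for hybrids against parents (9 without slide 557), 0 to 39 for lines (39 without slide 292 or 945), 0 to 3 by F (3 without slide 292), 38 to 56 for dye and 0 for the other two. Without each 250x005 sample, hybrids against parents stayed at 2 and reciprocal pairs at 0. None of the 5 called differences turned sign in 11 or 12 other settings or in 76 fits without 1 slide. These fits share most of their slides, so a kept sign says little. In 005x005 against 250x250, AI600395, AI770716 and AI734804 were at -3.06, -3.7 and -3.29 within slides 2 to 61. Within slides 916 to 999 they were at 0.81 ± 1.27 (SE), 1.24 ± 1.64 and 1.28 ± 1.42. Where a setting changed a count, the cause was not tested. Shares of all tested spots called are not given for these settings and fits. The counts therefore show how far the calls moved and are no result about the members.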

Other observations

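Besides the spot without an identifier, 5 spots of repeated identifiers were brighter than the lowest member and were kept out only because their identifier occurs on 2 rows. AI622103 was at 5.38 with its other spot at 0.33, BE056908 at 5.19 with the other at -0.58, BE056851 at 4.89 with the other at 1.38, AW066628 at 4.37 with the other at -0.03, and AI941547 at 4.23 with the other at -0.88. AI622103 and AW066628 followed the mean of the 57 members over 76 slides, with correlations of 0.953 and 0.927, and the other 3 did not, at -0.205 to -0.305.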
